A study of Drosophila melanogaster with 12 samples.

Results

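Adult *dSTINGΔ* males were compared with control males after 24 hr without food, across all 13554 genes of the array. This comparison rests on 6 of the 12 arrays of the study, 3 for each genotype. Control flies were of the w1118 stock. The *dSTINGΔ* flies, called dSTINGknock in the sample labels, carried an allele made by imprecise excision of a P element, which deleted the beginning of the *dSTING* coding sequence. Both starved groups were males aged 5 days that had been kept on food for 4 days and then held on moist filter paper for the last 24 hr. The fed groups of the same genotypes, also with 3 arrays each, stayed on food. They show where the starved comparison differs, and they also enter the estimate of the spread behind each starved p-value. Each array measured total RNA from 10 whole bodies, so fewer cells of a type and less RNA per cell cannot be told apart. With 1 mutant stock and 1 control stock, an effect of the allele and any other difference between the stocks cannot be told apart either. The labels do not say whether replicates came from separate cultures, so a p-value measures only the spread between these samples, which may be technical.

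STING is a membrane protein of the endoplasmic reticulum that binds cyclic dinucleotides, small signal molecules made by cGAS-like receptors or by bacteria. In flies it acts upstream of Relish, the NF-κB factor of the Imd immune pathway. A fly without food draws on glycogen and on triglyceride, which the fat body keeps in lipid droplets coated with perilipins. Lipases free fatty acids from the droplets, lipophorin carries lipid through the hemolymph, and mitochondria and peroxisomes break fatty acids down by beta-oxidation. Insulin signaling falls during fasting, which releases the transcription factor foxo and autophagy from repression.

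The targeted gene, *dSTING* (*CG1667* on the array), had log2 signals of 5.24, 5.39 and 5.49 on the control starved arrays and 2.36, 2.54 and 2.57 on the mutant starved arrays. Signals here are normalized log2 values, on which a difference of 1 is a 2-fold difference. No mutant value reached a control value, and the mutant signals were low for this table, in which the minimum was 1.11. The fitted log2 difference, mutant minus control, was -2.88 (standard error 0.18, adjusted p = 7.1e-07 from limma). Where the probes lie along *dSTING* is not stated, so this checks the labels only as far as they fall in the removed stretch. The next gene on either side, *Vamp7* and *Orc6*, had log2 differences of 0.11 (adjusted p = 0.478) and -0.21 (adjusted p = 0.223), neither past the threshold. *Orc6* was lower in fed flies, however (-0.52, adjusted p = 0.0102 from limma). Without control starved replicate 3 it was also past the threshold in starved flies (-0.33, adjusted p = 0.044).

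A gene was called when its limma p-value, adjusted by the Benjamini-Hochberg method over all 13554 genes, was under 0.05. Under starved conditions 2705 genes were called, 20% of those tested, with 1221 (9.01%) higher and 1484 (10.9%) lower in *dSTINGΔ*. These shares are the background for the starved counts of each gene list below. With arrays centred on their medians the majority turned, to 1482 higher and 1279 lower. A call with a difference of more than 1.4 fold was made for 1620 genes (12% of those tested), 703 (5.19%) higher and 917 (6.77%) lower, or 830 and 818 with centred arrays. Complete separation of the 3 mutant from the 3 control arrays was seen for 42.6% of all genes, 20.6% higher and 21.9% lower in the mutant, which is the background for each statement on overlap below. Under fed conditions 1690 genes (12.5%) were called, 841 (6.20%) higher and 849 (6.26%) lower, and 28.2% were separated. The fed comparison shares no array with the starved one, but both take their spread from all 12 arrays. Both comparisons called 911 genes in the same direction, which is 33.7% of the starved calls and 53.9% of the fed calls, and 11 genes in opposite directions. The middle gene differed by 0.164 on the log2 scale in absolute value under starved conditions and by 0.146 under fed conditions, and the median signed difference over all genes in starved flies was 0.0018. A test of the difference itself, the starved log2 difference minus the fed one, called 180 genes (1.33%), with 80 (0.590%) shifted up and 100 (0.738%) shifted down by starvation in the mutant relative to the control. Of these 180, 161 were also called in the starved comparison and 135 of those were not called under fed conditions. With centred arrays the split was 95 up and 76 down. The 180 became 934 without control fed replicate 1, 276 without mutant starved replicate 3 and 58 without control starved replicate 2. In the plot of starved against fed differences these genes lie off the diagonal.

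**Figure D1:**
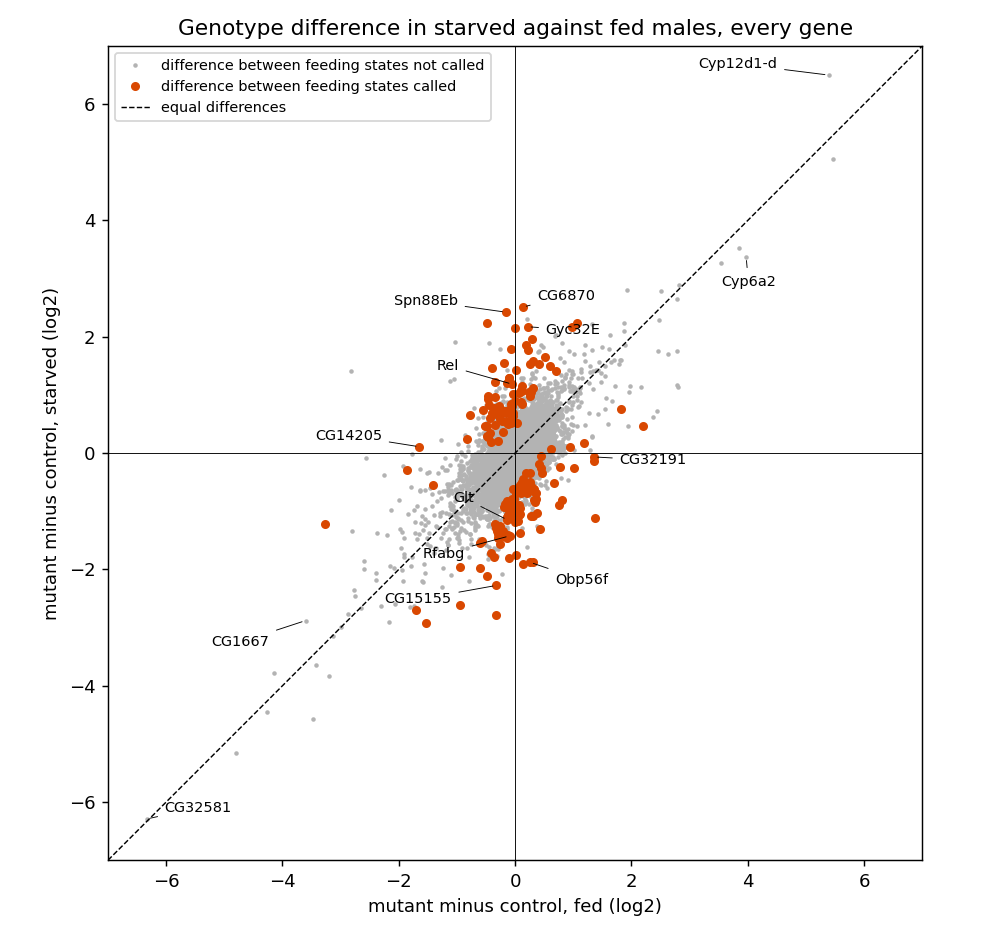
Log2 difference between *dSTINGΔ* and control males for each of the 13554 genes, under fed conditions on the horizontal axis and under starved conditions on the vertical axis, with the 180 genes whose 2 differences differed by limma (adjusted p under 0.05) in orange and the line of equal differences dashed. The largest differences, such as those of *Cyp12d1-d* (6.50 starved, 5.39 fed) and *CG32581* (-6.29 and -6.33), lie far from 0 on both axes. Most orange points lie near 0 on the fed axis.

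Before the results, 2 starved arrays stood apart from the others of their group for a set of genes. The mean log2 signal of the 21 antimicrobial peptide genes was 6.28 on mutant starved replicate 2 and between 4.03 and 4.56 on the other 5 starved arrays. For 13 photoreceptor genes the mean was 8.06 on control starved replicate 3 and between 8.90 and 9.22 on the other 5 starved arrays. Control fed replicate 3 was low as well, at 7.98, against 8.67 and 8.58 on control fed replicates 1 and 2. Both lists are given below with and without the starved array concerned. Over all genes the 6 starved arrays deviated from their group means by 0.116 to 0.165 (root mean square, log2), the highest being mutant starved replicate 2, and their medians ran from 5.82 to 5.87.

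The largest differences between the starved genotypes were also present in fed flies. *Cyp12d1-d*, a mitochondrial cytochrome P450, read 1.89, 1.99 and 2.16 on the control starved arrays and 8.18, 8.54 and 8.82 on the mutant starved arrays. It thus lay near the bottom of the table in every control starved array and well within the range of expressed genes in every mutant starved array, a difference of 6.50 (standard error 0.20, adjusted p = 4.9e-10 from limma), against 5.39 under fed conditions. Its near-identical neighbor *Cyp12d1-p*, looked up after the values were seen, read 7.90, 8.30 and 8.34 in control and 7.89, 7.98 and 8.07 in mutant arrays, with a difference of -0.20 (adjusted p = 0.564). How probes are split between the 2 copies is not given, so both values are uncertain. *Cyp6a2*, a P450 known for metabolizing insecticides, read 5.90, 5.94 and 6.03 in control and 9.12, 9.37 and 9.50 in mutant arrays, 10.4-fold higher (log2 3.37, adjusted p = 1.0e-09). The other genes among the 12 largest rises were a transfer RNA gene, *tRNA:CR30298* (5.05), the chimeric gene *Qtzl* (3.53), *CG33346* (3.28), *CG42759* (2.88), the metallothionein *MtnD* (2.81), the small nucleolar RNA *snoRNA:Me18S-A469* (2.79), the mucin gene *Muc4B* (2.65), *CG6870* (2.51), the serpin *Spn88Eb* (2.42) and *Cyp9c1* (2.28). All but *MtnD*, *CG6870* and *Spn88Eb* were called higher under fed conditions as well.

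At the other end, *CG32581*, whose current symbol is *sordd2*, read 8.37, 8.47 and 8.74 in control and 1.99, 2.33 and 2.39 in mutant starved arrays, a log2 difference of -6.29 (standard error 0.14, adjusted p = 4.2e-11 from limma). *CG13675* read 7.95, 7.97 and 8.11 in control and 2.54, 2.94 and 3.06 in mutant starved arrays (-5.16). The uridine diphosphate glycosyltransferase gene *Ugt35b*, which belongs to a family that couples sugars to small lipophilic molecules, read 7.33, 7.52 and 7.58 and 3.42, 3.64 and 3.85, respectively (-3.84, adjusted p = 4.9e-10). All 3 genes were thus separated between the genotypes, and the mutant values were low in the table. The 12 largest falls were completed by *CG14957* (-4.57), *snoRNA:Psi28S-3186* (-4.46), *CG14369* (-3.78), *CG11023* (-3.65), *CG18853* (-3.15), *CG5561* (-2.99), the Drosomycin-like peptide gene *Drsl4* (-2.92), *CR13656* (-2.91) and *dSTING* itself. All 12 were called lower under fed conditions too, and only *Drsl4* among them had a starved difference that differed from the fed one (-2.92 against -1.52, adjusted p of the difference = 0.0231). That last call was lost without control fed replicate 2, mutant fed replicate 3, control starved replicate 2 or mutant starved replicate 1 (adjusted p from 0.0545 to 0.0659).

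A separate set of genes differed between the genotypes mainly in starved flies. *Gyc32E*, a receptor-type guanylyl cyclase, had the smallest p-value of the test between feeding states. Its log2 signal was 2.60, 2.72 and 2.79 in control fed, 2.84, 2.95 and 2.97 in mutant fed, 2.62, 2.78 and 2.81 in control starved and 4.70, 4.90 and 5.12 in mutant starved arrays. The mutant starved arrays stood far above the others, with a starved difference of 2.17 and a fed difference of 0.22 (adjusted p of their difference = 2.0e-04 from limma). The same held for *CG6870*, with 6.56 to 6.68 in control fed, 6.64 to 6.89 in mutant fed, 6.23 to 6.75 in control starved and 8.46 to 9.59 in mutant starved arrays (adjusted p of the difference = 0.00372). *Spn88Eb*, of the serpin family of protease inhibitors, ran from 7.50 to 8.58 in mutant starved arrays and from 5.31 to 5.73 in control starved arrays (adjusted p of the difference = 0.00372), and its 2 fed groups overlapped. *Rel*, which encodes Relish, read 7.50, 7.63 and 7.75 in control starved and 8.65, 8.81 and 8.97 in mutant starved arrays, and its fed groups overlapped (7.06 to 7.28 in control, 6.97 to 7.22 in mutant). Its starved difference of 1.18 (adjusted p = 1.8e-05) exceeded its fed difference of -0.05 (adjusted p of the difference = 0.00361). The others with the smallest p-values in this direction were *snoRNA:Me28S-C1237*, *CG14205*, *atk* and *CG5953*. *CG14205* was lower in the fed mutant (-1.64) and had 0.11 in the starved comparison.

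In the opposite direction, *Rfabg* (current symbol *apolpp*), which encodes the apolipophorins that form the main lipoprotein of the hemolymph, read 10.71, 10.74 and 10.81 in control fed and 10.63, 10.66 and 10.68 in mutant fed arrays. After starvation it read 9.89, 10.24 and 10.35 in the control and 8.63, 8.73 and 8.86 in the mutant. The mutant starved arrays were thus below all 9 others, and the starved difference of -1.42 (adjusted p = 4.4e-06 from limma) exceeded the fed one of -0.10 (adjusted p of the difference = 0.00351). *Glt*, glutactin, a glycoprotein of basement membranes, read 7.53, 7.55 and 7.67 in control starved and 6.34, 6.39 and 6.57 in mutant starved arrays (-1.15, against -0.13 in fed flies). The odorant binding protein gene *Obp56f* read 8.23, 8.36 and 8.76 and 6.35, 6.56 and 6.80, respectively (-1.88, against 0.25 in fed flies). *CG31233*, *CG31493* and *CG15155* were likewise lower in the starved mutant, by 1.90, 1.31 and 2.28, and not called in fed flies. *CG32191* and *CG13155* were instead higher in the fed mutant, by 1.36 and 2.20, while their starved differences were -0.07 and 0.46. For *Gyc32E* and the other 15 genes of this kind named after it, the call between feeding states held when any 1 array was left out.

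Of the genes of lipid storage that passed the test, most were lower in the starved mutant. Of 15 measured genes of triglyceride synthesis and lipid droplets, 1 was called higher and 5 lower, with a median log2 difference of -0.28 against 0.0018 over all genes. *Lsd-1*, which encodes perilipin 1, a coat protein of lipid droplets, read 8.08, 8.18 and 8.24 on the control starved arrays and 5.45, 6.21 and 6.25 on the mutant starved arrays. It was the member with the largest fall, 4.6-fold lower (log2 -2.20, standard error 0.23, adjusted p = 3.9e-05 from limma), and fell by 0.79 in fed flies. *Jabba*, another droplet protein, read 7.40, 7.44 and 7.56 in control and 6.09, 6.20 and 6.36 in mutant starved arrays (-1.25, adjusted p = 1.5e-04). *CG1941*, a diacylglycerol acyltransferase of the enzyme family that makes triglyceride, read 5.46, 5.48 and 5.48 and 4.24, 4.39 and 4.54, respectively (-1.08). *CG2254* (*Ldsdh1*), a dehydrogenase of lipid droplets, fell by 0.94, and *mdy*, the DGAT1 enzyme of triglyceride synthesis, by 0.43, a call lost without mutant fed replicate 2 or 3, control starved replicate 2 or 3 or mutant starved replicate 1, 2 or 3 (adjusted p from 0.0523 to 0.164). The single rise was that of *Lpin*, the phosphatidate phosphatase Lipin, which read 7.28, 7.67 and 7.67 in control and 8.49, 8.70 and 8.78 in mutant starved arrays (1.12, adjusted p = 3.1e-05). None of the genes read here in single arrays overlapped between the genotypes after starvation. The rise of *Lpin* exceeded its fed difference of 0.31 (adjusted p of the difference = 0.0321), but this was lost without control fed replicate 2, mutant fed replicate 1, 2 or 3, control starved replicate 2 or mutant starved replicate 1 or 2 (adjusted p from 0.0615 to 0.0865). The second perilipin, *Lsd-2*, had a log2 difference of -0.27 (adjusted p = 0.236).

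**Figure D2:**
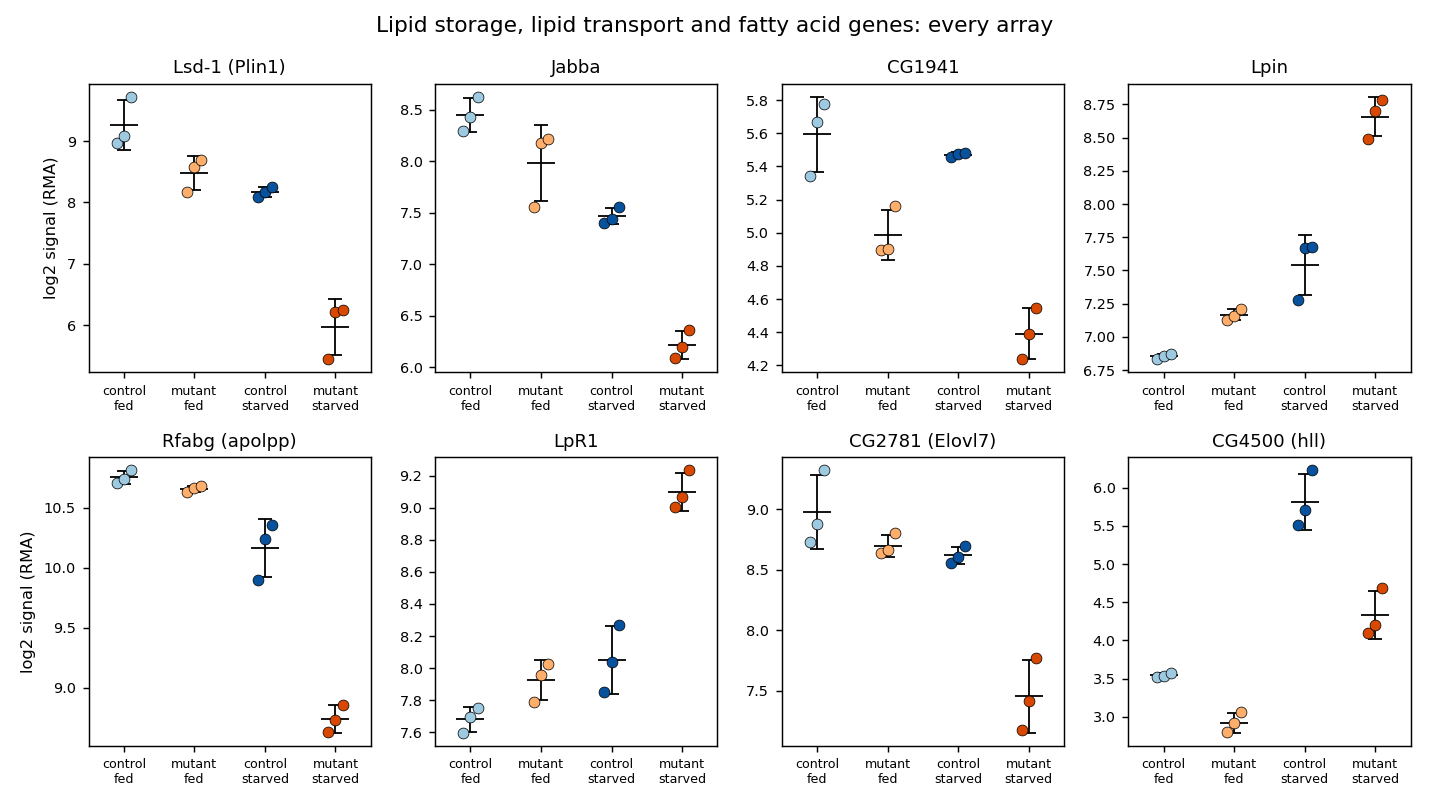
Log2 signal of 8 genes of lipid storage, transport and fatty acid metabolism on each array (points), with the mean and standard deviation of 3 arrays (bar and whiskers), in control fed, mutant fed, control starved and mutant starved males. In each panel the mutant starved arrays do not overlap the control starved arrays, lower in 6 genes and higher in *Lpin* and *LpR1*, and each vertical axis has its own range.

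Enzymes that build and lengthen fatty acids were also lower where they passed the test, with 1 exception in each list. Of 13 genes of fatty acid synthesis, 1 was called higher and 4 lower. *CG3523* (*FASN1*), the fatty acid synthase, read 10.05, 10.13 and 10.15 in control and 9.46, 9.68 and 9.75 in mutant starved arrays, a fall of 0.48 (adjusted p = 0.00396 from limma). *ATPCL*, which supplies cytosolic acetyl-CoA, fell by 0.40 (adjusted p = 0.00804), and acetyl-CoA carboxylase (*ACC*) had a log2 difference of -0.16 (adjusted p = 0.278). The rise was that of *HLH106*, the SREBP transcription factor of lipid synthesis genes, with 7.56, 7.71 and 7.83 in control and 8.20, 8.34 and 8.52 in mutant starved arrays (0.65, adjusted p = 0.00105). Neither *CG3523* nor *HLH106* overlapped between the starved genotypes, and neither was called in fed flies (0.04 and 0.13). Their differences between feeding states were not called either (adjusted p = 0.0793 and 0.105 from limma). The 4 lower members became 2 without control starved replicate 1 or mutant starved replicate 2. Among 20 fatty acid elongases 7 were lower and 1 higher, with a median of -0.33. *CG9459* fell by 1.25, *CG2781* (*Elovl7*) by 1.17, *CG9458* by 0.71 and *CG16904* by 0.61, while *CG31141* rose by 0.61. *CG2781* read 8.56, 8.61 and 8.70 in control starved and 7.17, 7.41 and 7.77 in mutant starved arrays, without overlap. The 7 lower elongases became 4 without control starved replicate 2.

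Of 28 genes of fatty acid activation and beta-oxidation, 14 were lower and 1 higher in the starved mutant, with a median of -0.36, while 6 were lower and none higher (limma, 1 at an unadjusted p under 0.05) in the fed mutant. The difference between feeding states was called for none of the 28. *CG4500* (*hll*), an acyl-CoA synthetase, read 3.52, 3.54 and 3.58 in control fed, 2.80, 2.92 and 3.06 in mutant fed, 5.51, 5.71 and 6.22 in control starved and 4.10, 4.21 and 4.68 in mutant starved arrays. Its signal was higher in starved than in fed flies of both genotypes, and lower in the mutant than in the control in both states (-1.48 starved, adjusted p = 1.0e-04 from limma). *Acsl* (-0.72) and *CG3961* (-0.69), which also activate fatty acids, *CG12262* (*Mcad*, -0.77), a medium-chain acyl-CoA dehydrogenase, and *Thiolase* (-0.51), which cleaves acetyl-CoA from the chain, fell as well. The one higher member, *bgm* (0.44), a very long chain acyl-CoA synthetase, lost its call without control starved replicate 1, 2 or 3 or mutant starved replicate 1 or 3 (adjusted p from 0.0777 to 0.130). The 14 lower members became 9 without control starved replicate 2 or mutant starved replicate 2.

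Of 29 lipase genes, labeled neutral lipases in the plot of gene lists, 12 were lower and 4 higher. *CG18302* read 5.57, 6.0 and 6.21 in control and 3.48, 3.71 and 4.29 in mutant starved arrays (-2.10, adjusted p = 2.7e-05 from limma), and *CG2772* read 4.67, 4.81 and 5.13 and 2.83, 2.87 and 2.89, respectively (-2.01). *mag*, Magro, a lipase secreted into the gut lumen, fell by 1.09, *dob*, a relative of the Brummer lipase, by 1.22 and *Lip4* by 1.06, and none of these 5 genes had overlapping arrays between the starved genotypes. *bmm*, the Brummer triglyceride lipase of lipid droplets, was instead higher, with 9.75, 9.96 and 10.04 in control and 10.17, 10.43 and 10.53 in mutant starved arrays (0.46, adjusted p = 0.0260). Its call was lost without control starved replicate 2 or mutant starved replicate 1 or 2 (adjusted p from 0.0837 to 0.117). *CG6277* rose by 0.90 (adjusted p = 4.9e-04). The hormone-sensitive lipase gene *Hsl* had 0.06 (adjusted p = 0.701). The 4 higher lipases became 1 without control starved replicate 2 or mutant starved replicate 2 and 2 without mutant starved replicate 3.

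Lipid carriers changed in both directions, with 8 of 21 measured genes lower and 5 higher. Besides *Rfabg*, the lower genes were *Mtp* (-0.56), which loads lipid onto lipophorin, *Apoltp* (-0.46), the lipid transfer particle, and 5 genes of the Niemann-Pick type C families of sterol-binding proteins. Of these *Npc2d* read 6.59, 6.62 and 6.76 in control and 4.75, 5.30 and 5.47 in mutant starved arrays (-1.48, adjusted p = 0.00106 from limma). *Npc1b* (-1.11), *Npc2g* (-0.95), *Npc2h* (-0.77) and *Npc2b* (-0.76) were the others. *LpR1*, a lipophorin receptor, was higher, with 7.85, 8.04 and 8.27 in control and 9.0, 9.07 and 9.23 in mutant starved arrays, without overlap (1.05, adjusted p = 5.3e-05). Its fed difference was 0.24, and the difference between the 2 (adjusted p = 0.0339) was lost without control fed replicate 2 or 3, mutant fed replicate 1, 2 or 3, control starved replicate 2 or 3 or mutant starved replicate 1 or 2 (adjusted p from 0.0509 to 0.0928). The lipocalin gene *NLaz* rose by 0.45, and *Npc2c*, *Snmp1* and *pes* were the remaining rises (0.77, 0.43 and 0.46). The call of *pes* was lost without control starved replicate 2 (0.0523) or mutant starved replicate 2 (0.0537). The call of *Npc2c* between feeding states (-0.36 in fed flies, adjusted p = 0.0279) was lost without mutant fed replicate 1, 2 or 3 or control starved replicate 1 or 2 (adjusted p from 0.0501 to 0.0900). Fat body is the main source of many of these transcripts, and its 9 marker genes, *Rfabg* among them, had 1 member higher and 2 lower. The higher one became 0 without control starved replicate 3 or mutant starved replicate 1 or 2. Their mean log2 signal ran from 5.63 to 5.87 on the control starved arrays and from 5.33 to 5.54 on the mutant starved arrays, and its part in the lipid results was not tested.

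Genes of insulin and nutrient signaling were more often higher than lower, with 9 of 35 called higher, 4 lower and a median of 0.15. The share called was 37.1%, beside 20% of all genes. Under fed conditions the same list had 2 higher and 2 lower. The insulin-like peptide gene *Ilp2* read 5.09, 5.16 and 5.21 in control and 6.40, 6.42 and 6.51 in mutant starved arrays (1.29, adjusted p = 6.8e-06 from limma), and its relative *Ilp3* read 4.70, 4.76 and 4.93 and 3.59, 3.93 and 4.13, respectively (-0.91, adjusted p = 6.6e-04). The 2 peptides, both made by the insulin-producing cells of the brain, thus moved in opposite directions without overlap between genotypes, and did so in fed flies too (0.85 and -1.42). *InR*, the insulin receptor, read 5.80, 5.96 and 6.29 in control fed, 5.97, 6.11 and 6.40 in mutant fed, 6.82, 6.97 and 7.16 in control starved and 7.91, 7.92 and 7.93 in mutant starved arrays (0.94, adjusted p = 5.0e-04). *Thor*, the 4E-BP inhibitor of translation and a target of foxo, rose by 0.64, *foxo* by 0.32 and *Mio* (*Mondo*), a sugar-sensing transcription factor, by 0.48. These 3 had fed differences of -0.09, -0.13 and 0.28, none called. For these 3 and for *InR* the difference between feeding states was not called. *foxo* lost its starved call without control starved replicate 2 or mutant starved replicate 1 or 2 (adjusted p from 0.0571 to 0.0768).

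The sugar-responsive transcription factor gene *sug* read 7.53, 7.65 and 7.80 in control fed, 7.78, 7.80 and 8.22 in mutant fed, 5.98, 6.37 and 6.51 in control starved and 5.05, 5.24 and 5.35 in mutant starved arrays. It was lower in starved flies of both genotypes and lowest in the starved mutant, with a starved difference of -1.07 against 0.28 in fed flies (adjusted p of the difference = 0.0125 from limma). *tobi*, an alpha-glucosidase gene that responds to insulin-like peptides, read 10.55, 10.57 and 10.65 in control and 6.84, 9.03 and 9.75 in mutant starved arrays. Its mutant arrays were far apart but all below the control arrays (-2.06, adjusted p = 0.0127). The difference was -1.20 without mutant starved replicate 2 and -2.66 without mutant starved replicate 1, with the call kept. *AkhR*, the receptor of adipokinetic hormone, which mobilizes stores, fell by 0.47, and the hormone gene *Akh* itself had 0.05 (adjusted p = 0.876).

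Of 20 measured core autophagy genes 6 were higher and 1 lower after starvation (median 0.22), with none called in fed flies by limma (1 at an unadjusted p under 0.05). *Atg1*, the kinase that starts autophagosome formation, read 6.58, 6.77 and 6.82 in control fed, 6.79, 6.81 and 6.89 in mutant fed, 6.83, 7.03 and 7.03 in control starved and 7.78, 8.03 and 8.35 in mutant starved arrays. *Atg18b*, a phosphoinositide-binding autophagy protein, read 7.45, 7.52 and 7.61, 7.19, 7.43 and 7.53, 7.73, 8.05 and 8.27 and 8.96, 9.25 and 9.45 in the same order of groups. In both genes the mutant starved arrays lay above all 9 others, and the starved difference by limma was 1.09 for *Atg1* (adjusted p = 9.8e-05) and 1.20 for *Atg18b* (adjusted p = 1.6e-04). The difference between feeding states was called for *Atg18b* (adjusted p = 0.0125) and for *Atg1* (adjusted p = 0.0231), in *Atg1* not without control fed replicate 2, mutant fed replicate 1, 2 or 3, control starved replicate 2 or mutant starved replicate 1 (adjusted p from 0.0580 to 0.0844). *Atg101* rose by 0.53 and *Atg7* by 0.37. *Atg2* (0.40) lost its call without control starved replicate 1 or 2 or mutant starved replicate 1 or 2 (adjusted p from 0.0519 to 0.0840). The call of *Atg6* (0.37) was lost without mutant fed replicate 1, control starved replicate 1 or 2 or mutant starved replicate 1 or 2 (adjusted p from 0.0508 to 0.164). The one lower member, *Atg13* (-0.30), lost its call without control fed replicate 2, mutant fed replicate 3, control starved replicate 1, 2 or 3 or mutant starved replicate 1, 2 or 3 (adjusted p from 0.0540 to 0.148).

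**Figure D3:**
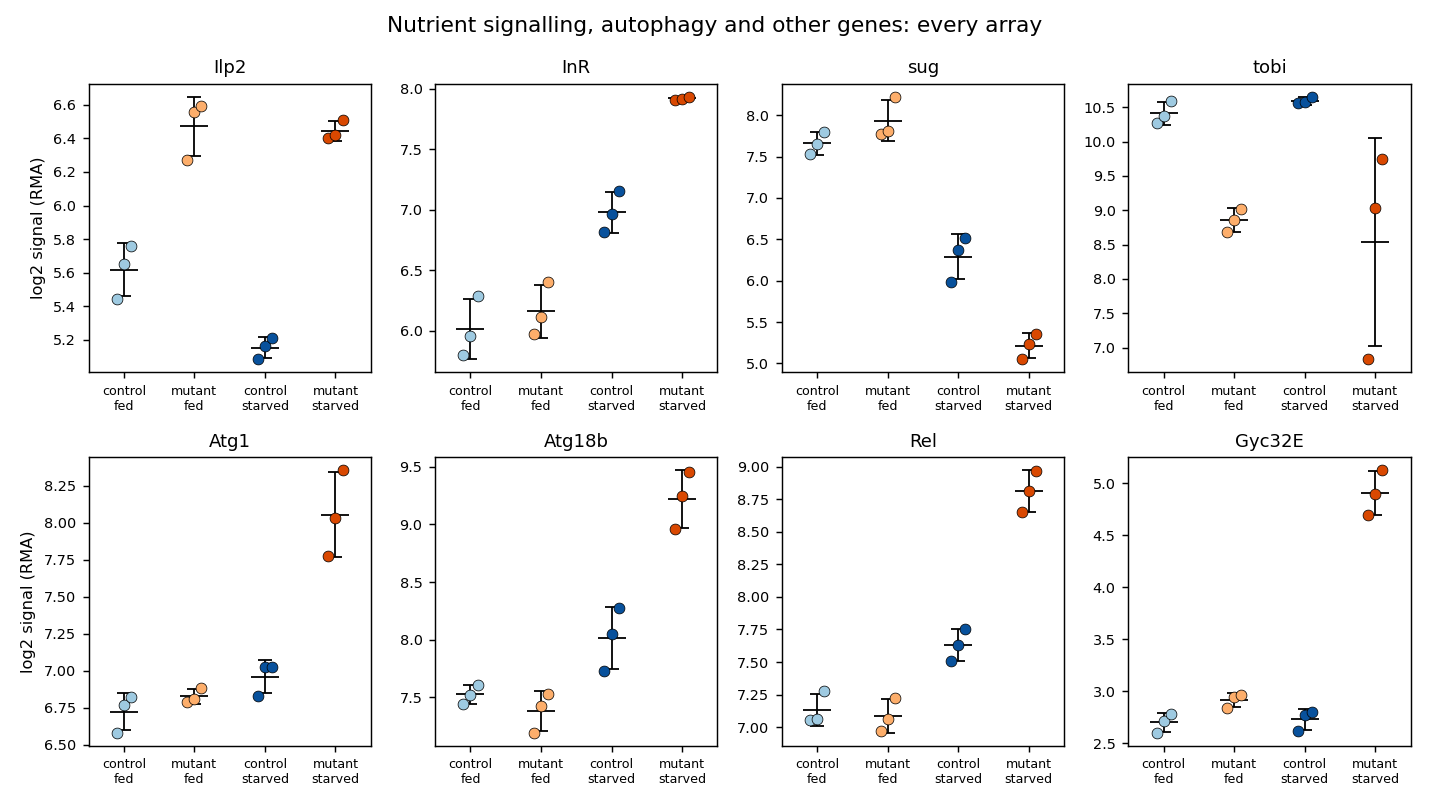
Log2 signal of 8 genes on each array (points), with the mean and standard deviation of 3 arrays (bar and whiskers), in control fed, mutant fed, control starved and mutant starved males. *InR*, *Atg1*, *Atg18b*, *Rel* and *Gyc32E* are highest and *sug* lowest in the mutant starved arrays, *Ilp2* is higher in the mutant in both states, and each vertical axis has its own range.

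Carbohydrate metabolism had 6 of 27 genes lower and 0 higher (limma, 1 at an unadjusted p under 0.05), against 1 lower in fed flies. Its 22.2% called, all lower, stand beside 20% of all genes called and 10.9% called lower. None of these 27 genes had a called difference between feeding states. *CG1516* (*PCB*), pyruvate carboxylase, read 8.09, 8.10 and 8.29 in control and 7.25, 7.60 and 7.61 in mutant starved arrays (-0.68, adjusted p = 7.1e-04 from limma). *Gpdh*, the glycerol-3-phosphate dehydrogenase that makes the backbone of triglyceride, fell by 0.57, the glycolytic enzyme *Gapdh2* by 0.75 and the hexokinase *Hex-C* by 0.53. Among 13 amylases and maltases 3 were higher and none lower (limma, 2 at an unadjusted p under 0.05), or 23.1% called. The maltase *Mal-B2*, 1 of the 3, read 7.60, 7.65 and 7.84 in control and 8.77, 9.01 and 9.18 in mutant starved arrays. It rose by 1.29 in starved flies, against -0.10 in fed flies (adjusted p of the difference = 0.00852). Digestive proteases of the gut were split, with 6 of 31 higher and 8 lower (45.2% called). *Jon65Aiii* (0.82) and *Jon65Aiv* (0.81) rose, and *lambdaTry* (-1.05), *zetaTry* (-1.04) and *Jon99Ci* (-0.92) fell. Genes of the Jonah family are similar in sequence, so how signal is shared among them is uncertain. The 6 higher proteases became 2 without control starved replicate 1 or 2 or mutant starved replicate 1 and 3 without mutant starved replicate 3, and the 8 lower ones 4 without mutant starved replicate 2 and 5 without control starved replicate 2. The mean log2 signal of 12 midgut markers ran from 7.75 to 8.28 on the control starved arrays and from 7.91 to 8.32 on the mutant starved arrays.

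STING resides in the endoplasmic reticulum. Of 19 measured genes of protein folding there, 6 were lower and 2 higher in the starved mutant, with a median of -0.21, and none was called in fed flies by limma (3 at an unadjusted p under 0.05). *Crc*, the calcium-binding chaperone calreticulin, read 10.17, 10.25 and 10.33 in control fed, 10.32, 10.36 and 10.38 in mutant fed, 10.05, 10.11 and 10.15 in control starved and 9.35, 9.38 and 9.52 in mutant starved arrays. The mutant starved arrays lay below all others (-0.69, adjusted p = 8.9e-05 from limma), and the starved difference differed from the fed one of 0.10 (adjusted p = 0.00693). The disulfide isomerases *ERp60* and *Pdi* fell by 0.58 and 0.58, and *Sec61alpha*, a subunit of the channel through which proteins enter the endoplasmic reticulum, by 0.71. The 2 higher members were *Xbp1* (0.27) and *Ire1* (0.31), a transcription factor of the unfolded protein response and the sensor that activates it. Their number became 0 without mutant fed replicate 1, control starved replicate 2 or 3 or mutant starved replicate 1 or 2 and 1 without mutant fed replicate 3, control starved replicate 1 or mutant starved replicate 3.

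Among genes of detoxification, cytochrome P450 genes were called more often than the 20% of all genes. Of 80 cytochrome P450 genes, 28 were lower and 12 higher in the starved mutant (50% called), with 24 and 8 in fed flies. *Cyp12d1-d*, *Cyp6a2* and *Cyp9c1* led the rises and *Cyp4aa1* the falls, with 6.90, 7.09 and 7.13 in control and 4.88, 5.08 and 5.25 in mutant starved arrays (-1.97, adjusted p = 8.6e-07 from limma). *Cyp4p2* rose by 1.15 and *Cyp4ad1* by 0.90, while *Cyp6a13* (-1.28), *Cyp4d20* (-1.25) and *Cyp313a1* (-1.09) fell. The 12 higher P450 genes became 7 without control starved replicate 2. Of 17 glycosyltransferases 7 were lower and none higher (limma, 2 at an unadjusted p under 0.05), among them *Ugt36Ba* (-1.54), *Ugt36Bc* (-1.36) and *Ugt35a* (-0.96) besides *Ugt35b*. With centred arrays 2 were higher and 5 lower, and 1 was higher without control fed replicate 1 or mutant starved replicate 2. Of 35 glutathione S-transferases 3 were higher and 5 lower, a share of 22.9% beside the 20% of all genes. The 5 lower ones became 3 without mutant starved replicate 1. *GstD5* (1.71) and *GstD8* (-1.38) had the largest rise and fall of the list.

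All 5 measured metallothioneins, small cysteine-rich proteins that bind copper, zinc and cadmium, were higher in the starved mutant, and 2 of them in the fed mutant. *MtnC* read 5.27, 5.88 and 6.27 in control and 7.72, 8.16 and 8.22 in mutant starved arrays (2.23, adjusted p = 1.6e-05 from limma), *MtnE* 1.49, 2.37 and 2.73 and 3.84, 3.97 and 4.69 (1.97), and *MtnD* 4.65, 6.54 and 7.22 and 8.45, 9.04 and 9.35 (2.81, adjusted p = 0.00529, and 2.07 without control starved replicate 2). *MtnA*, the most strongly hybridizing of the family, read 9.70, 9.77 and 9.91 and 10.48, 10.86 and 11.12, respectively (1.03). In none of them did the starved genotypes overlap. *MtnB*, with 3.26, 3.39 and 3.40 in control and 3.99, 4.47 and 6.13 in mutant arrays (1.51), lost its call without control starved replicate 2 (0.0546), and its difference was 0.88 without mutant starved replicate 2, the array at 6.13. None of the 5 had a difference between feeding states that was called. *Ctr1B*, a copper importer looked up after its value was seen, read 7.85, 9.03 and 9.27 in control and 6.19, 6.45 and 6.61 in mutant starved arrays, a fall of 2.30 (adjusted p = 2.9e-04), and *MTF-1*, the metal-responsive transcription factor of metallothionein genes, also looked up afterward, had a rise of 0.32 (adjusted p = 0.0114).

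Immune genes moved in several directions. Of 19 genes of STING and Imd signaling 4 were higher and only *dSTING* was lower. With the deleted gene counted 26.3% were called, beside 20% of all genes. Besides *Rel*, the higher ones were *Tab2* (0.57), an adaptor of the Imd kinase complex, *CG33926* (*Srg3*, 1.86), a gene known to be induced by STING signaling, and *pirk* (0.99), an inhibitor of the pathway. *Srg3* read 1.75, 1.76 and 2.08 in control and 3.35, 3.71 and 4.12 in mutant starved arrays, all low but without overlap. *pirk* overlapped, with 5.69, 5.70 and 6.56 and 6.39, 7.02 and 7.50, and lost its call without control starved replicate 1 or 2 or mutant starved replicate 1 or 2 (adjusted p from 0.0795 to 0.126). Another gene of that kind, *CG42825* (*Srg2*), read 5.72, 5.97 and 6.0 in control and 4.54, 4.90 and 4.93 in mutant starved arrays. It did not overlap and was not called (-1.10, adjusted p = 0.108 from limma). It was called lower without control fed replicate 1 (adjusted p = 0.0405) or 2 (adjusted p = 8.29e-04). The cGAS-like receptor genes *CG12970* (*cGlr1*) and *CG30424* (*cGlr2*) had -0.01 (adjusted p = 0.963) and -0.20 (adjusted p = 0.145). With single arrays left out, the number of lower members became 2 without control fed replicate 1, 2 or 3 or control starved replicate 2.

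Antimicrobial peptide genes, many but not all of them targets of Imd or Toll, had 2 of 21 members higher and 2 lower. That is 19% called, beside 20% of all genes. Above 0 were 17 of the 21, with a median of 0.477, and 10 with a median of -0.045 without mutant starved replicate 2. *Dpt* (*DptA*) read 4.25, 4.36 and 4.93 in control and 4.89, 4.92 and 9.41 in mutant starved arrays, *AttC* 4.28, 4.57 and 4.85 and 4.11, 4.44 and 8.97, and *CecC* 3.50, 3.52 and 3.58 and 3.19, 3.25 and 8.44. In each of them the highest value belonged to mutant starved replicate 2 and the other 2 mutant arrays lay close to the controls. Their fitted differences of 1.90, 1.28 and 1.43 were not called (adjusted p = 0.151, 0.355 and 0.364 from limma). Without that array they were 0.39 (adjusted p = 0.309), -0.29 (adjusted p = 0.263) and -0.32 (adjusted p = 0.533), again not called. *Drsl4* and *Drsl5*, Drosomycin-like peptides, were lower on all mutant arrays (-2.92 and -1.32), and *Anp*, andropin, a peptide of the male reproductive tract, was higher on all of them (0.96). The 2 higher members became 1 without control fed replicate 2, control starved replicate 1, 2 or 3 or mutant starved replicate 3 and 4 without mutant starved replicate 1. Of 11 Bomanins, short peptides induced by Toll, 5 were lower and none higher (limma, 0 at an unadjusted p under 0.05), and 7 were lower in fed flies. The mean of the 11 genes was 7.27 to 7.47 on the control starved arrays, 6.68 and 6.87 on mutant starved replicates 1 and 3 and 7.30 on mutant starved replicate 2, and without that array 7 were lower. *CG5791* (*BomBc3*) read 7.52, 7.63 and 7.71 in control and 5.95, 6.21 and 6.34 in mutant starved arrays (-1.45, adjusted p = 4.6e-05). In the Toll pathway 5 of 21 genes were lower and 2 higher (33.3% called). The lower ones included the ligand *spz* (-0.73) and the proteases *SPE* (-0.75) and *Hayan* (-0.81), and the higher ones were the receptor *Tl* (0.53) and the kinase *pll* (0.63). The 5 became 3 without control starved replicate 3 or mutant starved replicate 1 or 3. Serpins had 9 of 28 lower and 2 higher (39.3% called), with *Spn53F* at -2.64 and *Spn28B* at -1.47. The 2 became 4 without control fed replicate 1 or 2. Of 7 Turandot stress genes 1 was lower (14.3% called), *TotA* (-1.58).

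Markers of hemocytes, the blood cells that engulf microbes and secrete matrix, were lower in the starved mutant in 6 of 9 cases, and in 7 in the fed mutant. *Hml*, hemolectin, read 5.96, 6.04 and 6.07 in control and 4.55, 4.67 and 4.71 in mutant starved arrays (-1.38, adjusted p = 1.6e-04 from limma), and *Ppn*, papilin, read 6.72, 6.82 and 6.93 and 5.33, 5.59 and 5.66, respectively (-1.30). Both were lower on all mutant arrays. The mean log2 signal of the 9 markers ran from 4.89 to 5.03 on the control starved arrays and from 4.23 to 4.49 on the mutant starved arrays, and its part in the immune and matrix results was not tested. The 6 lower markers became 2 without control starved replicate 2 or mutant starved replicate 1 and 3 without mutant starved replicate 3. Of 12 basement membrane genes, a list that shares *Ppn* and *Pxn* with the hemocyte markers, 6 were lower and 1 higher. The collagen IV chains *Cg25C* and *vkg* fell by 0.71 and 0.52 and the laminin chain *LanA* by 0.53, while *wb*, another laminin chain, rose by 0.52. The call of *wb* between feeding states (adjusted p = 0.0413) was lost without control fed replicate 2 or 3, mutant fed replicate 1, 2 or 3, control starved replicate 1 or 2 or mutant starved replicate 1 or 2 (adjusted p from 0.0573 to 0.124).

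**Figure D4:**
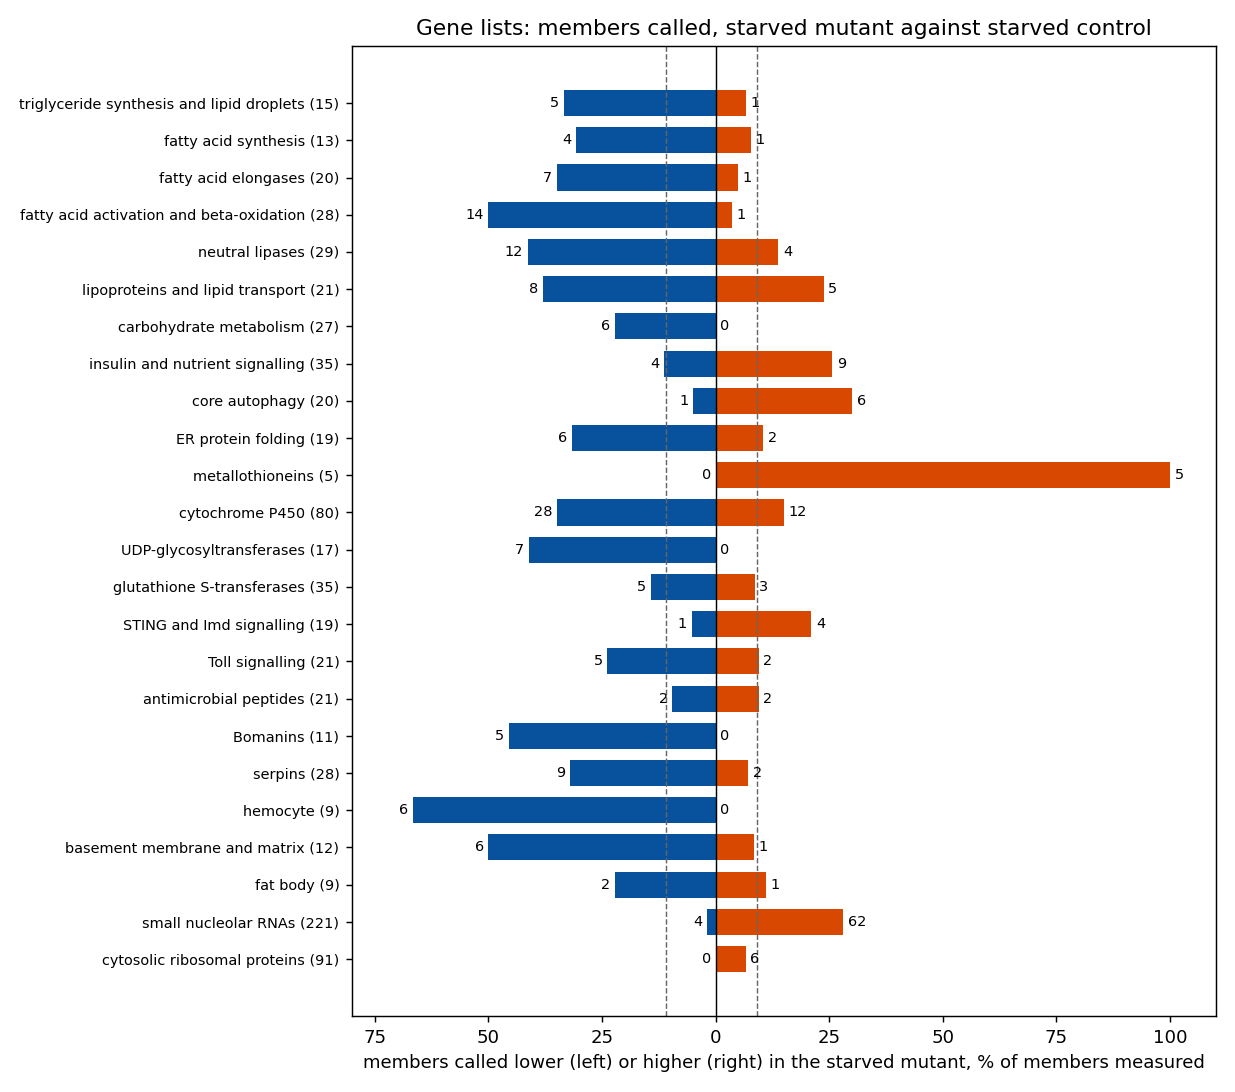
Share of measured members called lower (left, blue) or higher (right, orange) in the starved mutant against the starved control by limma (adjusted p under 0.05), for 24 gene lists with the number measured in brackets and the number called at the end of each bar. Dashed lines mark the shares among all 13554 genes, 10.9% lower and 9.01% higher, and the bars of hemocyte markers, beta-oxidation and matrix genes reach furthest left.

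Small nucleolar RNAs, which guide chemical modification of ribosomal RNA, were mostly above 0. Of 221 measured, 62 were called higher and 4 lower, with a median log2 difference of 0.44, and 191 (86.4%) were above 0, against 50.4% of all genes. The fed comparison had 10 higher and 6 lower with a median of -0.0077. The test between feeding states called only 1 of the 221, where it called 1.33% of all genes. The mean log2 signal of the class ran from 6.05 to 6.41 on the control starved arrays and from 6.57 to 6.60 on the mutant starved arrays, so the starved genotypes did not overlap. It was 6.0, 6.53 and 6.59 on the control fed arrays and 6.26 to 6.55 on the mutant fed arrays. The control fed replicates thus ran from below every control starved array up to the level of the mutant starved arrays. *snoRNA:Me28S-C1237* read 4.36, 4.40 and 4.68 in control and 6.27, 6.77 and 6.87 in mutant starved arrays (2.16, against -0.01 in fed flies, adjusted p of the difference = 0.00243 from limma). *snoRNA:Psi28S-2179* rose by 1.42 and *snoRNA:Psi28S-1060* by 1.14, and *snoRNA:Psi28S-3186* fell by 4.46. The 4 lower members became 1 without mutant starved replicate 1 and 2 without control starved replicate 2 or 3 or mutant starved replicate 2 or 3, and the 62 higher ones became 27 without control starved replicate 1 or 2, 28 without mutant starved replicate 1, 32 without mutant starved replicate 3, 36 without mutant starved replicate 2, 97 without control starved replicate 3 and 113 without control fed replicate 1. Many small nucleolar RNAs lie in introns of host genes or have similar copies, so the source of their signal is uncertain. Cytosolic ribosomal protein genes, by contrast, had 6 of 91 higher and 0 lower (limma, 3 at an unadjusted p under 0.05), or 6.59% called. The 6 became 3 without control starved replicate 1 or 2 or mutant starved replicate 2. Centring each array on its median left the direction of the small nucleolar RNAs as it was, with 76 called higher.

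**Figure D5:**
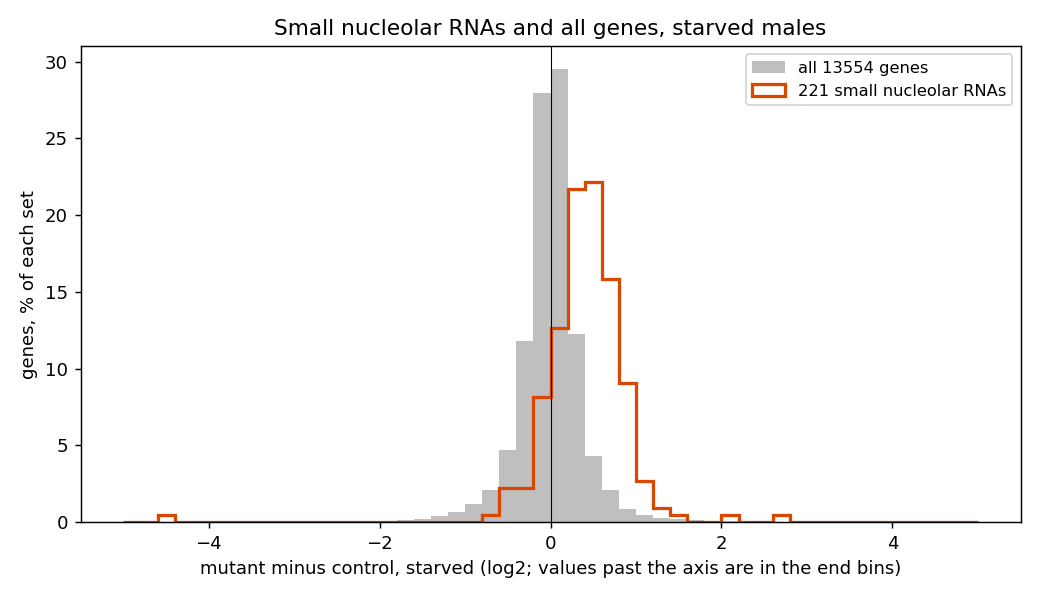
Distribution of the log2 difference between starved *dSTINGΔ* and starved control males, as the percentage of genes in bins of 0.2, for all 13554 genes (gray) and for the 221 small nucleolar RNAs (orange line). The small nucleolar RNAs are displaced to the right, with a median of 0.44 against 0.0018.

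Of 10 accessory gland genes, which encode seminal fluid proteins, 4 were lower after starvation and none in fed flies (limma, 0 at an unadjusted p under 0.05). The test between feeding states called none of the 10. *Acp76A* read 5.65, 5.76 and 5.82 in control and 3.50, 3.95 and 4.46 in mutant starved arrays (-1.77, adjusted p = 5.8e-04 from limma), *Acp36DE* 10.44, 10.49 and 10.63 and 9.08, 9.75 and 9.88 (-0.95), and *Acp26Aa* fell by 0.84. These 3 did not overlap between the starved genotypes, and the mean of the 10 genes ran from 8.11 to 8.39 on the control starved arrays and from 7.53 to 8.03 on the mutant starved arrays. Muscle had 2 of 16 genes lower (12.5% called), *Act88F* (-0.97), the actin of the flight muscle, and *TpnC4* (-0.56), a troponin. Testis had 2 of 12 higher and 1 lower, or 25% called beside 20% of all genes. The 2 became 1 without mutant starved replicate 1 or 3, 4 without control starved replicate 3 and 5 without control fed replicate 1. Photoreceptor genes had 1 of 13 called, the rhodopsin *Rh5* (1.42), and all 13 were above 0 with a median of 0.39. Without control starved replicate 3, 11 of them were above 0 with a median of 0.135, and *Rh5* had 1.05 and kept its call. The number called became 2 without control fed replicate 1 or control starved replicate 1 and 3 without control fed replicate 3. None of 12 neuronal, 12 female and 4 ejaculatory duct markers was called by limma at an adjusted p under 0.05, and 1 of these 28 had an unadjusted p under 0.05. The yolk and eggshell genes of the female list had mean log2 signals from 3.15 to 3.41 on the control starved arrays and from 3.29 to 3.33 on the mutant starved arrays, low in the table, and the ejaculatory duct genes had means from 9.98 to 10.20 over the 6 arrays, both matching the male label.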

How the data were processed

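Total RNA of 10 whole-body males per sample was hybridized to Drosophila Gene 1.0 ST arrays, which have 1 color. The authors deposited 1 table of RMA-normalized log2 signals per gene (12 arrays), made per the labels with affy 1.48.0 in R 3.2.0 and, by the study's methods, with a custom probe mapping to Entrez genes. RMA subtracts background, equalizes the distributions of the arrays by quantiles and summarizes the probes of a gene, which removes shifts shared by all genes of an array. Columns with the authors' own comparisons were not used. The deposited values per sample, also log2, differed from the table by at most 0.005.

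All 12 arrays were fitted with limma 3.58.1 in R 4.3.3, with 1 mean for each of the 4 groups, so that the fed groups share the estimate of the spread, and without a filter. Two-sided p-values were adjusted over all 13554 genes by Benjamini-Hochberg and called under 0.05. The fit was tested on simulated data. The difference between feeding states is the starved contrast minus the fed contrast. Fits used the columns of the table by group, and values given for a named replicate come from the records of each sample. Figures were drawn with matplotlib 3.10.9.

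The comparison, the gene lists and the rule for genes to name were chosen with earlier results of these data known. The rule took *dSTING*, the 12 largest rises and falls among called genes without overlap, members of 44 gene lists (every member of lists with up to 12, otherwise up to 6 called in each direction) and 8 genes in each direction by the test between feeding states, 355 genes in all. The text prints those that show a result, mostly calls that held with any 1 array left out, and this selection was made after the values were seen. Genes outside the rule, also chosen afterward, were *Vamp7*, *Orc6*, *Cyp12d1-p*, *Lsd-2*, *ACC*, *Hsl*, *Apoltp*, *Npc1b*, *foxo*, *Akh*, *Ctr1B*, *MTF-1*, *CG42825*, *CG12970*, *CG30424*, *Dpt*, *AttC* and *CecC*. Gene symbols are those of the table, with current symbols from RefSeq Release 6, in which 13263 of the genes were found. Alternatives were the replicate number as a block, the 6 starved arrays alone, array weights, trended and robust variances, centring, repeated quantile normalization, a filter at the median signal, the values per sample, other thresholds and leaving out each array.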

Additional observations from a re-analysis of the deposited data

Results flagged for a closer look

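For 27 genes with values in the text, the difference between *dSTINGΔ* and control males in starved flies differed from that in fed flies by limma (adjusted p under 0.05), out of 180 such genes in all. The quantity given here is the starved log2 difference minus the fed one. It was above 0 and held when any 1 array was left out for *CG6870* (2.38), *Spn88Eb* (2.58), *Gyc32E* (1.96), *Rel* (1.23), *snoRNA:Me28S-C1237* (2.17), *CG14205* (1.75), *atk* (1.57), *CG5953* (1.73), *Atg18b* (1.35) and *Mal-B2* (1.39). It was below 0 and held likewise for *Rfabg* (-1.33), *Glt* (-1.02), *Obp56f* (-2.13), *CG31233* (-2.04), *CG31493* (-1.73), *CG15155* (-1.95), *CG32191* (-1.43), *CG13155* (-1.75), *sug* (-1.35) and *Crc* (-0.79).

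The call did not hold for the others. For *Drsl4* (-1.39) it was lost without control fed replicate 2, mutant fed replicate 3, control starved replicate 2 or mutant starved replicate 1 (adjusted p from 0.0545 to 0.0659). For *Lpin* (0.81) it was lost without control fed replicate 2, mutant fed replicate 1, 2 or 3, control starved replicate 2 or mutant starved replicate 1 or 2 (adjusted p from 0.0615 to 0.0865). For *LpR1* (0.81) it was lost without control fed replicate 2 or 3, mutant fed replicate 1, 2 or 3, control starved replicate 2 or 3 or mutant starved replicate 1 or 2 (adjusted p from 0.0509 to 0.0928). For *Npc2c* (1.14) it was lost without mutant fed replicate 1, 2 or 3 or control starved replicate 1 or 2 (adjusted p from 0.0501 to 0.0900). For *Atg1* (0.99) it was lost without control fed replicate 2, mutant fed replicate 1, 2 or 3, control starved replicate 2 or mutant starved replicate 1 (adjusted p from 0.0580 to 0.0844). For *Spn28B* (-1.33) it was lost without control fed replicate 2, mutant fed replicate 1, 2 or 3, control starved replicate 1, 2 or 3 or mutant starved replicate 1 or 2 (adjusted p from 0.0674 to 0.142). For *wb* (0.58) it was lost without control fed replicate 2 or 3, mutant fed replicate 1, 2 or 3, control starved replicate 1 or 2 or mutant starved replicate 1 or 2 (adjusted p from 0.0573 to 0.124). No group exceeded 3 arrays, so single arrays were not tested for standing apart. Mutant starved replicate 2 had the highest antimicrobial peptide signals of the 6 starved arrays, as given with those genes.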

How the results depend on the processing

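The number of genes called in the starved comparison, 2705, ranged from 1688 to 3302 when 1 array was left out, with 1688 without control starved replicate 2 and 1760 without mutant starved replicate 2. It was 4563 with array quality weights and 1402 at an adjusted p under 0.01, and stayed within 1.5 times of 2705 in the fits of the 6 starved arrays alone (3270), with centred arrays (2761, with the majority turned to 1482 higher against 1279 lower), with genes above the median signal (1888) and at an adjusted p under 0.1 (3603). Genes also over 1.4 fold, 1620, numbered 1315 to 1790 with 1 array left out, 948 among genes above the median signal and 419 over 2 fold. The 180 genes that differed between feeding states were the least stable count. They numbered 58 to 934 with 1 array left out (64 without mutant fed replicate 3, 80 without mutant starved replicate 1, 84 without mutant starved replicate 2, 85 without mutant fed replicate 2, 86 without mutant fed replicate 1, 87 without control fed replicate 2, 92 without control starved replicate 1), 2096 with array quality weights, 27 at an adjusted p under 0.01 and 591 at an adjusted p under 0.1. The cause was not tested. The log2 difference of *dSTING*, -2.88, stayed between -2.95 and -2.82 with 1 array left out, and it lay below the median signal, so that alternative gave no value for it.

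With the replicate number as a block, 2448 genes were called in the starved comparison, 1597 of them over 1.4 fold, and 95 between feeding states. Deviations of same-numbered arrays from their group means correlated between -0.451 and 0.37 over genes, and between -0.256 and 0.0424 for control starved with mutant starved arrays. The 0.37 was that of control fed with control starved replicate 3. The labels do not say whether same-numbered samples were handled together, and this was not tested.

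Of 169 called genes with values in the text, 154 kept the call under every alternative fitted. The sign turned in 4 genes, none of them called, whose log2 differences changed as follows. *Akh* (0.05) was -0.0826 with array quality weights and -0.155 to 0.26 with 1 array left out, turning without mutant starved replicate 2. *CG12970* (-0.01) was 0.0184 with centred arrays and -0.0467 to 0.0233 with 1 array left out, turning without control starved replicate 3 or mutant starved replicate 1. *AttC* (1.28) was -0.292 to 2.14 with 1 array left out, turning without mutant starved replicate 2. *CecC* (1.43) was -0.317 to 2.31 with 1 array left out, turning without mutant starved replicate 2. Groups of 3 arrays limit precision, and low signals limit the folds of genes near the bottom of the table.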

Other observations

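Heat shock genes, whose products keep proteins folded, had 6 of 25 members higher and 2 lower in the starved mutant (32% called, beside 20% of all genes). The small heat shock genes moved apart. *Hsp22*, a mitochondrial member, read 6.04, 6.09 and 6.38 in control and 7.15, 7.22 and 7.86 in mutant starved arrays (1.24, adjusted p = 4.7e-04 from limma), and *l(2)efl* rose by 0.97. *Hsp67Bc* read 4.46, 4.55 and 4.69 and 2.42, 2.90 and 3.17, respectively (-1.73, adjusted p = 2.2e-05), and *Hsp27* fell by 0.55. The call of *Hsp27* was lost without control starved replicate 1 or 2 or mutant starved replicate 1 (adjusted p from 0.0529 to 0.0748). The copies *Hsp70Bb* (1.29) and *Hsp70Bbb* (1.56) are nearly identical, so how signal is split between them is uncertain. The 2 lower ones became 1 without control starved replicate 1 or 2 or mutant starved replicate 1.

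Odorant binding protein genes had 6 of 47 members lower and 3 higher (19.1% called, beside 20% of all genes). Besides *Obp56f*, *Obp56a* fell by 1.64, *Obp99b*, also expressed in fat body, by 1.35 and *Obp8a* by 0.85, while *Obp44a* rose by 0.45 and *Obp51a* by 0.70. Cuticle protein genes had 9 of 112 higher and 13 lower, 19.6% called. *Cpr72Ec* read 4.01, 4.99 and 5.00 in control and 5.83, 6.47 and 6.81 in mutant starved arrays (1.71), and *Cpr62Bb* read 6.25, 6.29 and 6.51 and 4.62, 5.41 and 5.53, respectively (-1.16). Among clock genes, the activator *Clk* fell by 0.44 and *vri*, its repressor, rose by 0.41, the only 2 of 10 called. The call of *vri* was lost without control starved replicate 2 or 3 or mutant starved replicate 2 (adjusted p from 0.0610 to 0.101). The 1 higher clock gene became 0 without control starved replicate 2 or 3 or mutant starved replicate 2 and 2 without control fed replicate 1, 2 or 3. The 1 lower clock gene became 2 without control starved replicate 3.

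Mitochondrial ribosomal protein genes had 4 of 72 higher and 7 lower (15.3% called), and this and the shares below stand beside 20% of all genes. *mRpL37* alone was far from the rest, at 5.83, 5.93 and 6.10 in control and 7.77, 7.81 and 7.86 in mutant starved arrays (1.86, against 1.89 in fed flies). The 7 lower ones became 2 without control starved replicate 2, 3 without mutant starved replicate 1 and 4 without control starved replicate 3 or mutant starved replicate 2 or 3. The proteasome had 7 of 46 subunit genes lower and 1 higher (17.4% called), the latter *Prosalpha6T* (0.52), a testis variant of a subunit. The 1 higher subunit became 2 without control fed replicate 3, mutant fed replicate 2 or 3 or control starved replicate 3 and 3 without control fed replicate 1. The 7 lower subunits became 1 without mutant starved replicate 1, 2 without control starved replicate 1 and 3 without control starved replicate 2 or mutant starved replicate 2 or 3. The proton pump and lysosomal protease list had 2 of 36 higher and 3 lower (13.9% called), and 19 genes of the defense against oxidants had 2 higher and 2 lower (21.1% called), among them the peroxiredoxin *Jafrac2* (-0.58). The 2 higher genes of the former became 1 without control starved replicate 1 or 2 or mutant starved replicate 1 or 2. The 3 lower genes of the former became 1 without control starved replicate 1 or 2 or mutant starved replicate 1 or 3. The 2 higher genes of the latter became 0 without control starved replicate 1 or 2 or mutant starved replicate 2, 1 without mutant starved replicate 1 and 4 without control starved replicate 3. The 2 lower genes of the latter became 1 without mutant starved replicate 1 or 2.

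By chromosome arm, from the RefSeq annotation of Drosophila melanogaster Release 6, the share of genes called in starved flies was 13.7% on X, 23.9% on 2L, 21.7% on 2R, 21.1% on 3L, 19.3% on 3R and 15.2% on 4, and in fed flies 6.9%, 15.5%, 14%, 14.1%, 11.4% and 8.86% in the same order. Of the 20 measured genes nearest to *dSTING*, 10 on each side, 6 were called (30%). Of the nearest 100 it was 17 (17%) and of the nearest 400 it was 76 (19%).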
